A study of Mus musculus with 18 samples.

Results

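The samples described here are 6 of 18 arrays of mouse skeletal muscle myoblasts, which fell into 2 sets of 3 with a strong muscle expression program. They were chosen from measured values and not from labels. An array was taken when its log2 level of Ckm, muscle creatine kinase, was above 10, when the probe ILMN_1221149, which has no gene symbol in the annotation used and is called the marker probe below, was below 5, and when Usp18, an interferon-induced protease, was below 6. The member nearest to the Ckm threshold was at 10.87 and the highest array under it at 8.05. For the marker probe the highest member was at 4.39 and the nearest array above the threshold at 13.36. For Usp18 the highest member was at 5.38 and the nearest array above the threshold at 9.72. Of the 9 arrays with Ckm above 10, 6 met all conditions, and each of the 6 had its 2 closest arrays, by correlation over genes, in its own set. Set A holds Wt day 3 replicate 3 and KO day 3 replicates 1 and 2. Set B holds KO day 0 replicate 1, KO day 3 replicate 3 and OE day 3 replicate 1. Values of single arrays are given in this order throughout.

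All 18 arrays are of myoblasts isolated from mice of the strain Gata4tm1.1Sad/J, in which Gata4 carries loxP sites. Wt cells were infected with an adenovirus for nuclear beta-galactosidase, KO cells with an adenovirus for Cre recombinase, and OE cells with a retrovirus for mouse GATA4. Day 0 is growth medium with 20% fetal bovine serum and bFGF, and day 3 is 3 days in differentiation medium with 5% serum. Each of the 6 labelled groups has 3 arrays, and nothing in the labels states whether replicates are separate cultures. The kind of virus differs between OE and the other cells, and what share of the KO cells had lost Gata4 is not given in the labels.

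The sets cut across the labels. KO day 3 is split over both sets, the KO day 0 array carries the label of growth medium, and Wt and OE each give 1 array. Gata4 itself did not check the labels here. Its probe read 4.51, 4.48 and 4.64 in set A and 4.24, 4.38 and 4.48 in set B on the log2 scale, it was detected on none of the 6 arrays, and no probe of any array read below 4.13. The array labelled KO day 0 replicate 1 had Ckm at 11.25, against 6.78 to 8.05 on the 9 arrays with low Ckm. For this reason the library labels are given as labels only, and no direction is drawn from them.

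Myoblasts leave the cell cycle when serum is withdrawn, fuse into multinucleate myotubes under the control of myogenin and the membrane protein myomaker, and then build sarcomeres. Cultures at a like stage of this program can still differ in the signals they make and receive. Among these are chemokines made under NF-kB, the pathway that answers bacterial products and the cytokines TNF and IL-1, the antigen-presenting proteins induced by interferon, enzymes induced by low oxygen, and Wnt and BMP signals.

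Ckm, which chose the arrays and is given as a description only, read 11.22, 11.39 and 11.28 in set A and 11.25, 10.87 and 11.09 in set B. Myog, which encodes myogenin, had a mean of 11.06 ± 0.03 (SD, n = 3) in set A and 11.14 ± 0.20 in set B. Mymk, which encodes myomaker, had means of 11.09 ± 0.10 and 11.03 ± 0.06. The sets overlapped for Myog and Mymk. They also overlapped for Acta1, skeletal alpha-actin, whose means were 14.34 in set A and 14.50 in set B, and for Top2a, a gene of dividing cells, with means of 5.53 and 5.20. Top2a was at 7.82 to 8.82 on the 9 arrays with low Ckm, so no array of either set came near those levels. Other genes of these kinds did separate the sets. The mean of 32 sarcomere genes was 11.64 to 11.70 on the arrays of set A and 11.50 to 11.59 on those of set B. The mean of 25 cell cycle genes was 7.23 to 7.26 and 6.82 to 6.90. With no overlap, 12 of the 32 were higher in set A and 5 in set B, and 14 and 0 of the 25. Over all genes the shares were 15.7% and 19.6%.

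Arrays within a set were more alike than arrays of different sets. Correlations over the 11921 genes were 0.9942 to 0.9949 within set A, 0.9916 to 0.9929 within set B and 0.9831 to 0.9884 between the sets, as a description of arrays that were chosen for this likeness. With the 9 low-Ckm arrays they were 0.9192 to 0.9374. Since the sets were chosen from these same values, set A and set B are compared without a test. A gene is counted when all 3 arrays of one set lie above all 3 of the other and the means differ by at least 1 on the log2 scale, which is 2-fold. By this rule 70 genes (0.587% of those measured) were higher in set A and 57 (0.478%) in set B, or 1.07% in all. Without the minimum of 2-fold, 15.7% of all genes had set A above set B with no overlap and 19.6% had set B above set A. The median difference over all genes was 0.03 and the median SD within a set 0.15.

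The split between the directions depended on the scaling. With each array scaled to its median in place of quantile normalisation, 153 genes were higher in set A and 37 in set B, and the median difference of all genes (B minus A) moved from 0.03 to -0.13. Without KO day 0 replicate 1, the array whose label and muscle level disagree, 106 genes were higher in set A and 71 in set B. The raw signal also moved with the sets. Mean intensity per array was 342 to 398.5 units in set A and 296.9 to 325.3 in set B, and 18888 to 19966 of 45281 probes were detected in set A against 17944 to 18334 in set B. The part of this in the results below was not tested. In bulk RNA, fewer cells of a type and less RNA per cell cannot be told apart.

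**Figure D1:**
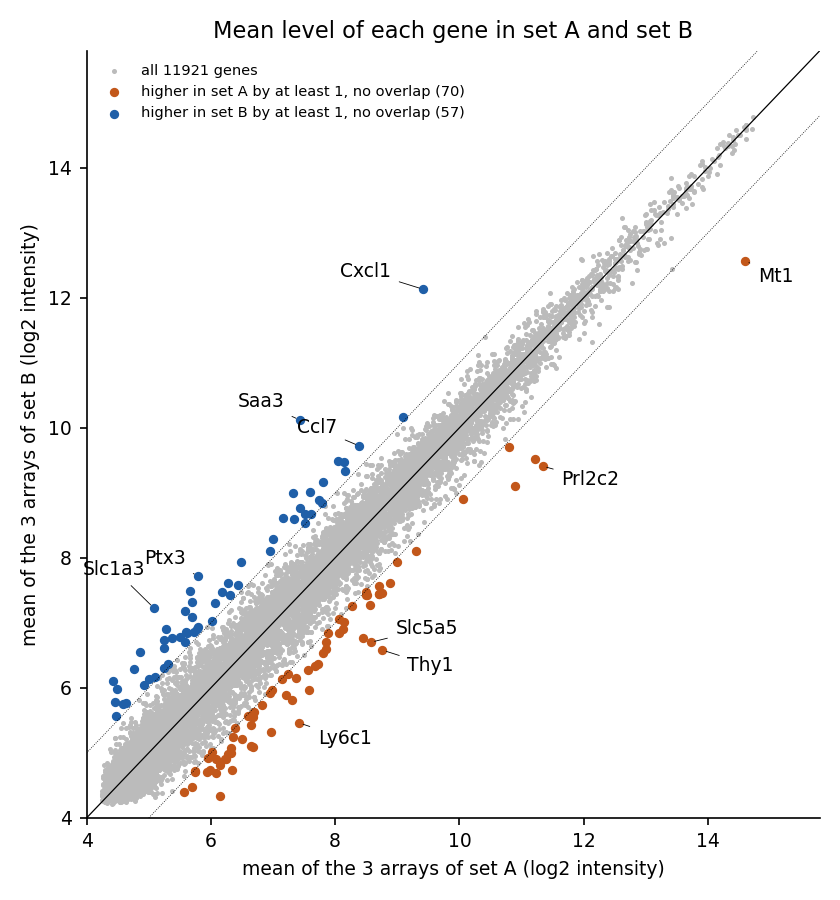
Mean log2 intensity of each of 11921 genes in set A (x axis) and set B (y axis), 3 arrays each. Grey points are all genes, orange points the 70 genes higher in set A and blue points the 57 higher in set B by the rule; the solid line marks equal means and the dotted lines a difference of 1. Mt1 stands apart among the brightest genes, and Cxcl1 and Saa3 lie farthest on the side of set B.

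The upstream sequences of 3 of these genes are printed because they hold motifs of the pathways named here. The NF-kB consensus, named only, is the decameric site of that factor, and ACGTG is the core bound by hypoxia-inducible factors. Both were searched on both strands in the 250 bases before the gene start (RefSeq, GRCm38.p6), with the letters of every match to either motif in capitals. The 250 bases of Cxcl1 (chr5:90890995-90891244, plus strand) and of H2-K1 (chr17:34000348-34000597, minus strand, the first of 2 starts listed) each hold 2 overlapping matches to the NF-kB consensus, which together cover the bases 61 to 71 and 101 to 111 before the start. Those of Car9 (chr4:43506776-43507025, plus strand) hold 1 match to ACGTG, on the opposite strand, at 14 to 18 bases before the start. Cxcl1 also holds 1 match to ACGTG on the opposite strand, at 192 to 196 bases before the start.
Cxcl1: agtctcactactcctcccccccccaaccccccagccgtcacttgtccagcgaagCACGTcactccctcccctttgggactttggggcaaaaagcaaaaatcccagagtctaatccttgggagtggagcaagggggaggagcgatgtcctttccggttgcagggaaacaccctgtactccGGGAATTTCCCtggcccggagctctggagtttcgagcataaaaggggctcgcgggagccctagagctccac
H2-K1: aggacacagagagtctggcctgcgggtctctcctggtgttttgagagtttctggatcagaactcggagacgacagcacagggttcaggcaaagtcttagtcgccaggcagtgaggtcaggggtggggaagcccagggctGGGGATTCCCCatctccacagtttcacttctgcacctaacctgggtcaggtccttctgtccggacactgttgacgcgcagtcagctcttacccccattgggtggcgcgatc
Car9: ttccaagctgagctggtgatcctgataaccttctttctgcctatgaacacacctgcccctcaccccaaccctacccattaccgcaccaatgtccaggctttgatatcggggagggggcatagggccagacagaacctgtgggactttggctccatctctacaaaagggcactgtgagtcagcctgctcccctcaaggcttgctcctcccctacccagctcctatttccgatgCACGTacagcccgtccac

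A match is a description of letters and not a site of binding. Of 9636 measured genes with a promoter in the table, 8.49% held the NF-kB consensus and 21.3% held ACGTG. Of the 57 genes higher in set B, 43 had a promoter, and 7 of these (16.3%) held the NF-kB consensus and 11 (25.6%) ACGTG. Of the 70 higher in set A, 46 had a promoter, and 6 held the NF-kB consensus and 8 (17.4%) held ACGTG. Cxcl1 and H2-K1 both hold the consensus and differed in opposite directions.

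Chemokines and acute-phase proteins led the genes higher in set B. Cxcl1, a chemokine that attracts neutrophils, read 9.49, 9.52 and 9.26 in set A and 11.99, 12.19 and 12.22 in set B, a difference of 2.71 on the log2 scale or 6.54-fold. The other 12 arrays lay between 10.46 and 12.28, so it was set A that stood outside their range. Saa3, an acute-phase serum amyloid protein, read 7.36, 7.54 and 7.39 in set A and 10.39, 9.82 and 10.16 in set B, a difference of 2.69. Here set B stood apart, since the other arrays reached at most 8.90. Ptx3, a secreted pattern-recognition protein, read 5.87, 5.99 and 5.49 against 7.72, 7.77 and 7.67, a difference of 1.93, and set B was again above every other array, of which the highest was at 6.14. Ccl7, a monocyte chemokine, read 8.45, 8.35 and 8.37 against 9.71, 9.80 and 9.66, a difference of 1.33. Its neighbour in function, Ccl2, was 1.13 higher in set B. Lcn2, an iron-scavenging protein of inflammation, was not detected on any array of set A and was at least 2.20-fold higher in set B. Slpi, a secreted inhibitor of neutrophil elastase, read 7.33, 7.12 and 7.03 against 8.69, 8.61 and 8.57, a difference of 1.46.

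Of 25 measured genes of the NF-kB, chemokine and inflammatory list, 6 were higher in set B by the rule and 0 in set A. Without the minimum of 2-fold, 12 had set B above set A with no overlap and 3 the reverse, against 19.6% and 15.7% of all genes. The median difference of the list was 0.46, against 0.03 over all genes, and its mean level was 6.18 to 6.22 on the arrays of set A and 6.76 to 6.79 on those of set B. Nfkbia, the inhibitor that NF-kB induces against itself, was 0.67 higher in set B, the cytokine Il6 0.63 and the subunit gene Relb 0.53, all with no overlap. The list was not of 1 kind. Cxcl12, a chemokine of stromal cells, was lower in set B by 0.64 on the log2 scale with no overlap, and Tnfaip3, Icam1, Cxcl10 and Nfkb2 overlapped between the sets. The list holds genes with earlier results of these data known, so its direction is not independent evidence.

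Markers of leukocytes, endothelial cells and neural cells were at low levels. Of 17 markers of macrophages and leukocytes, 7 were measured, 1 was detected on all 6 arrays, and the mean level was 4.94 to 5.14 in set A and 4.96 to 5.12 in set B. Endothelial markers were at 5.16 to 5.19 and 5.02 to 5.15, with 2 of 8 detected on all 6 arrays. Markers of Schwann and neural cells, with 3 measured of 11, were at 5.18 to 5.33 and 5.00 to 5.41. The sets overlapped for the leukocyte and neural lists and not for the endothelial list, where Cldn5 differed most (-0.96, B minus A). Markers of other mesenchymal cells were at higher levels. The mean of 12 smooth muscle markers was at least 7.92 on each array of set A and at most 7.87 on each of set B, that of 12 fibroblast and progenitor markers was 6.87 to 6.99 and 6.78 to 6.87, and that of 6 adipocyte markers was 7.02 to 7.28 and 6.66 to 6.80. The part of these lists in other results was not tested.

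The other genes among the 15 largest differences toward set B had varied roles. Slc1a3, a glutamate transporter, read 5.15, 5.01 and 5.07 in set A and 7.01, 7.21 and 7.46 in set B, a difference of 2.15. Apoe, the apolipoprotein E of lipid transport, read 5.41, 5.76 and 5.81 against 7.38, 7.53 and 7.57, a difference of 1.83, and set B lay above all other arrays, which reached 6.01. Mdk, the heparin-binding growth factor midkine, differed by 1.69, Gdnf, a neurotrophic factor known to be made by muscle, by 1.61, and Nt5e, the CD73 enzyme that forms adenosine outside the cell, by 1.62. These differed in where the other arrays stood. Mdk was at 8.30 to 9.50 on the low-Ckm arrays, the range of set B (8.90, 8.94 and 9.16), while set A (7.19, 7.36 and 7.40) lay below it. The other 3 arrays with high Ckm were at 6.80 to 6.99, below both sets. Rerg, a small Ras-like GTPase (1.68), Spink10 (1.52), Snhg11, a long noncoding RNA (1.49), and Nkd2, an inhibitor of Wnt signalling, complete the largest differences on this side. Nkd2 was not detected in set A and was at least 2.51-fold higher in set B.

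Genes of low oxygen and of sugar breakdown were more often higher in set B. Car9, the membrane carbonic anhydrase whose core motif is shown above, read 4.74, 5.00 and 4.82 in set A and 7.07, 6.34 and 6.25 in set B, a difference of 1.70. It was at 4.24 to 4.48 on the low-Ckm arrays without the marker probe and at 8.08 to 9.02 on those with it. Pygl, the liver form of glycogen phosphorylase, read 5.00, 5.32 and 5.50 against 6.71, 7.06 and 6.93, a difference of 1.63. Of 27 measured genes of the glycolysis and hypoxia list, Car9 alone met the 2-fold rule, and the median difference was 0.37. Of the 27, 17 had set B above set A with no overlap and 0 the reverse, against 19.6% and 15.7% of all genes. Among these were the phosphofructokinase Pfkp (0.94), the glucose transporter Slc2a1 (0.68), the prolyl hydroxylase Egln3 (0.61) and Vegfa (0.51). The main glycolytic enzymes differed little. Gapdh (0.06), Pgk1 (0.08) and Pgam1 (0.04) overlapped between the sets.

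Wnt and matrix genes were likewise more often higher in set B. Of 22 measured Wnt genes, 2 were higher in set B by the rule, Nkd2 and Ccn5 (1.28), a matricellular protein. The median was 0.39. A further 9 lay higher with no overlap, which makes 11 against 0 in the other direction (19.6% and 15.7% of all genes). They include Wnt5a (0.95), the secreted inhibitor Sfrp2 (0.96) and Axin2 (0.67), a feedback target of the pathway. Of 36 measured genes of collagens and matrix, 3 were higher in set B by the rule. These were Mmp2, a gelatinase (1.32), Col6a1 (1.29) and Col8a1 (1.18). With no overlap, 17 were higher in set B and 5 in set A, and the median was 0.16. Genes of 1 kind differed in both directions. Of the basement membrane genes, Nid1 (-0.84, B minus A) and Col4a1 (-0.55) were higher in set A, Nid2 (0.41) and Col18a1 (0.17) were higher in set B, and Col4a2, Lama2 and Lamb1 overlapped. Of the collagen cross-linkers, Lox (0.92) was higher in set B and Loxl1 (-0.01) overlapped, as did the fibrillar collagens Col1a1, Col1a2 and Col3a1. Of 26 BMP, TGF-beta and myostatin genes, 12 were higher in set B with no overlap and 3 in set A, and 0 met the 2-fold rule. Bmp4 (0.93) and the inhibitors Smad6 (0.81) and Fst (0.65), follistatin, were among the 12. Under median scaling the medians of the NF-kB, hypoxia, Wnt, BMP and matrix lists were 0.24, 0.21, 0.19, 0.07 and 0.05, while all genes shifted to -0.13. Of 22 p53 targets, Fas, a death receptor, met the rule (1.34), and 8 genes were higher in set B with no overlap against 1 in set A. The median of that list was 0.09, and under median scaling it was -0.12, which is 0.01 relative to all genes.

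**Figure D2:**
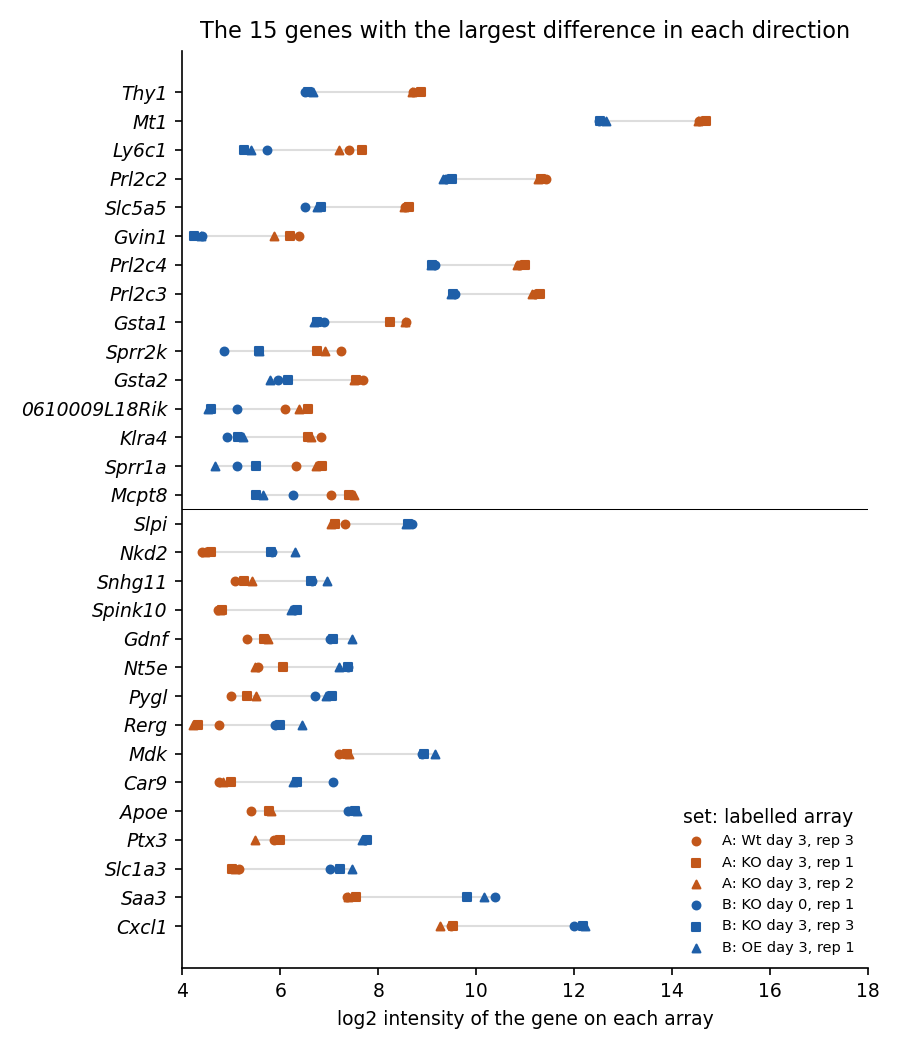
Log2 intensity (x axis) of the 15 genes with the largest difference in each direction, 1 row a gene, on each of the 3 arrays of set A (orange) and set B (blue). Genes above the line were higher in set A and genes below it in set B. The sets do not overlap in any row, as the rule requires, and Mcpt8 has the smallest gap between them.

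Thy1 led the genes higher in set A. Thy1, the CD90 surface protein of fibroblasts and progenitors, read 8.71, 8.87 and 8.70 in set A and 6.50, 6.57 and 6.66 in set B, a difference of 2.18 on the log2 scale or 4.54-fold. It was the only member of the 12 measured fibroblast and progenitor markers to meet the rule. The list as a whole had 2 genes higher in set A with no overlap and 3 in set B, against 15.7% and 19.6% of all genes. Its median was 0.15. Mt1, a metallothionein that binds zinc and copper, read 14.55, 14.70 and 14.53 in set A and 12.52, 12.53 and 12.65 in set B. This was 4.08-fold, at a gene near the top of the intensity range. Mt2, its neighbour in function, overlapped between the sets, with a difference of -0.18. The glutathione transferases Gsta1 (8.56, 8.25 and 8.54 against 6.90, 6.74 and 6.68) and Gsta2 (7.68, 7.55 and 7.51 against 5.95, 6.16 and 5.79) were also higher in set A. The glutathione transferases Gstk1 (1.45) and Mgst1 (1.26) were higher in set B. Nqo1, a quinone reductase of the antioxidant response, was 1.16 higher in set B. The antioxidant list of 16 measured genes was split by the rule, with Mt1 higher in set A and Nqo1 in set B.

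Prl2c2, a placental growth hormone relative, read 11.42, 11.32 and 11.26 in set A and 9.38, 9.50 and 9.33 in set B. Prl2c3 and Prl2c4 differed by 1.70 and 1.79 in the same direction. The genes are near-identical copies, and their probes may read the same RNA, so they are not separate evidence, although each copy is included in the counts of genes. The same holds for Gsta1 and Gsta2, for Klra4 and Klra16, for H2-Q6 and H2-Q8, and for Oas1d and Oas1e. Slc5a5, the sodium-iodide symporter, read 8.55, 8.62 and 8.53 against 6.51, 6.83 and 6.74, and set A lay above every other array, of which the highest was at 7.27. Klra4, a receptor of natural killer cells, was likewise above every other array, with 6.84, 6.57 and 6.62 against at most 5.71. Sprr2k and Sprr1a, which encode cornified-envelope proteins of skin, differed by 1.65 and 1.54. Mcpt8, a mast cell protease, differed by 1.50, and 0610009L18Rik by 1.60.

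Genes of antigen presentation were more often higher in set A, whereas the interferon-induced genes as a list had a median near 0. H2-K1, a class I histocompatibility chain, read 8.74, 8.75 and 8.62 in set A and 7.94, 7.53 and 7.23 in set B, a difference of 1.13. Psmb9, a subunit of the immunoproteasome, read 7.24, 7.25 and 7.13 against 5.96, 5.92 and 5.80, a difference of 1.31. Of 14 measured genes of this list, these 2 met the rule. With no overlap, 7 were higher in set A and 1 in set B, against 15.7% and 19.6% of all genes. The mean level was at least 7.93 on each array of set A and at most 7.60 on each of set B. Psmb8, Tap2 and H2-D1 were among the 7, with differences of -0.78, -0.65 and -0.59 (B minus A). Gvin1, an interferon-induced large GTPase, was not detected in set B and was at least 2.68-fold higher in set A. Ly6c1, a surface protein that interferon induces, read 7.40, 7.66 and 7.19 against 5.72, 5.26 and 5.40. Of 27 measured interferon-induced genes, 1 was higher in each set by the rule. These were Bst2, or tetherin, in set A (7.88, 8.15 and 7.14 against 6.63, 6.38 and 6.09) and Gbp2, a guanylate-binding protein, in set B (a difference of 1.13). Their median was 0.01. Usp18, the gene of the choosing rule, read 5.23, 5.38 and 5.25 in set A and 4.48, 5.08 and 5.11 in set B.

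Cell cycle genes were more often higher in set A. Ccne1, which encodes the G1 cyclin E1, read 8.11, 8.12 and 8.13 in set A and 6.79, 7.05 and 6.88 in set B, a difference of 1.21, and was at 8.40 to 8.96 on the low-Ckm arrays. Of 25 measured genes of the list, Ccne1 alone met the rule. With no overlap, 14 were higher in set A and 0 in set B, against 15.7% and 19.6% of all genes. The median was -0.38 (B minus A), and the mean level was 7.23 to 7.26 in set A and 6.82 to 6.90 in set B. The licensing factor Mcm7 (-0.68), thymidine kinase Tk1 (-0.75), the replication-coupled methylation factor Uhrf1 (-0.82) and the spindle gene Tpx2 (-0.86) were among them, and Pcna (-0.60), Mcm2 (-0.13) and Rrm2 (-0.24) overlapped. Mest, an imprinted gene of growing tissue (8.84, 8.93 and 8.90 against 7.84, 7.75 and 7.26), and Scd1, a fatty acid desaturase (9.95, 10.13 and 10.08 against 9.07, 8.80 and 8.83), were also higher in set A. Scd1 is also among the adipocyte markers given above.

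Differences within the muscle lists were under 2-fold. They ran in both directions, more often toward set A in the sarcomere, fast fibre, excitation coupling, myogenic regulator and synapse lists. The slow fibre, muscle wasting and satellite cell lists did not lean that way. None of 32 sarcomere, 24 myogenic regulator and 26 excitation coupling and energy genes met the 2-fold rule. Only 1.07% of all genes met it, so 0 is close to that share. Of the sarcomere genes, 12 were higher in set A with no overlap and 5 in set B, against 15.7% and 19.6% of all genes. Of 13 fast fibre genes, 7 were higher in set A with no overlap and 1 in set B, with a median of -0.33. They include Myoz1 of the Z-disc (-0.78), the calcium buffer Pvalb (-0.67), the myosin-binding Mybpc2 (-0.66) and the heavy chain Myh1 (-0.56). Of 12 slow and cardiac-type genes, 3 were higher in set A with no overlap and 5 in set B (15.7% and 19.6% of all genes). Myl2 (0.61), Csrp3 (0.49) and Myh7 (0.31) were higher in set B, and Tnni1 (-0.81) and Myoz2 (-0.71) in set A. Myh7 was near the floor, with means of 4.58 in set A and 4.89 in set B and a lowest value of any probe of 4.13. It was detected on 1 array of set A and 2 of set B. The median of the slow list was 0.10, and under median scaling it was -0.14, which is -0.01 relative to all genes. Of the excitation coupling and energy genes, 14 were higher in set A with no overlap and 0 in set B, with a median of -0.20. Among them were myoglobin (Mb, -0.33), the muscle glycogen phosphorylase Pygm (-0.32) and the calcium release channel Ryr1 (-0.19). At the synapse, Chrne, the adult subunit of the acetylcholine receptor (-0.70), and Ache, which breaks acetylcholine down (-0.58), were higher in set A, and the fetal subunit Chrng (0.06) overlapped. The largest difference in the myogenic regulator list was that of Cdkn1c, a cell cycle inhibitor, which read 13.37, 13.48 and 13.42 in set A and 12.41, 12.45 and 12.46 in set B, a difference of 0.99, just under the 2-fold rule. Outside the lists, and chosen after their values were seen, 3 genes known from muscle met the rule and were higher in set A. Ky, a sarcomere-associated protein whose loss causes kyphoscoliosis in mice, had means of 10.79 and 9.70, with 5.27 to 7.36 on the low-Ckm arrays. Mlip, a lamin-interacting protein, had means of 8.15 and 7.01, and Mss51, a mitochondrial protein of muscle, differed by 1.06.

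**Figure D3:**
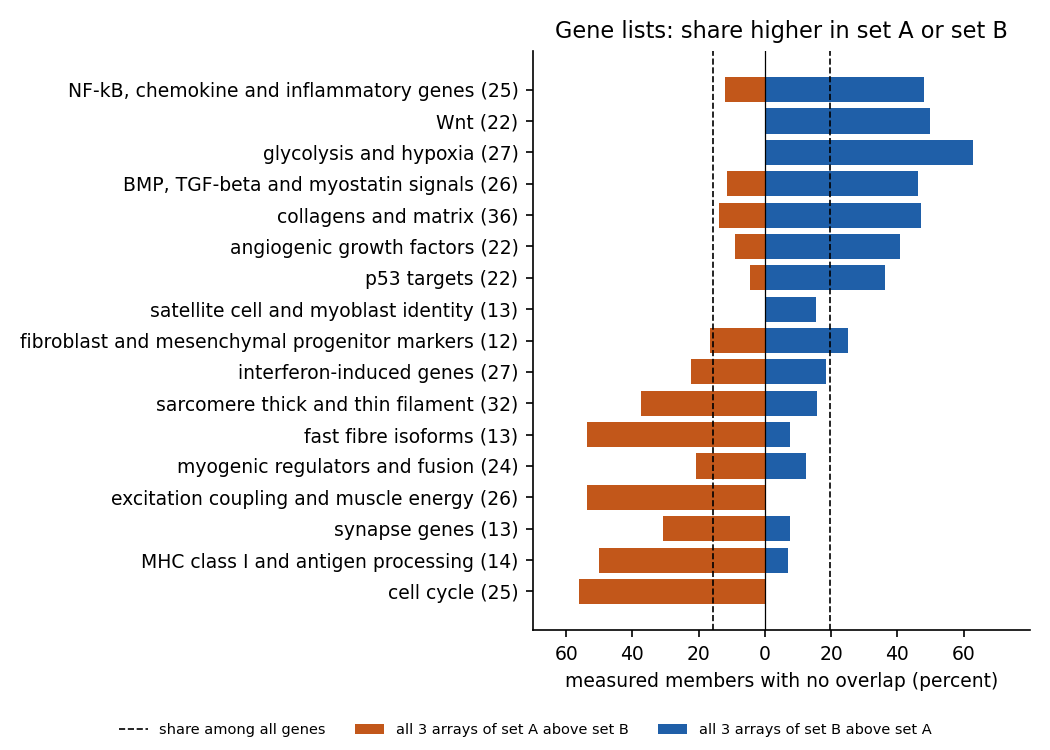
Share of the measured members of 17 gene lists, with their number in parentheses, whose 3 arrays of set A all lie above set B (orange, to the left) or whose 3 arrays of set B all lie above set A (blue, to the right), in percent. The dashed lines mark the shares among all genes, 15.7% and 19.6%. The glycolysis and hypoxia, Wnt, cell cycle, excitation coupling and satellite cell lists have such members on 1 side only.

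The levels on the other 12 arrays place these differences. Of the 127 genes, 46 had set A outside the range of all 12, and 28 had set B outside it. Over all genes the shares were 16.84% for set A and 11.69% for set B. The other 3 arrays with high Ckm, labelled as the first replicate of Wt at day 0 and at day 3 and replicate 2 of OE at day 0, carry the marker probe and have Usp18 at 9.72 to 9.94. They were nearer to set B for 55 of the 70 genes higher in set A. They were nearer to set A for 34 of the 57 genes higher in set B. Over all genes they were nearer to set A for 45.57%. For Slc1a3 they were at 4.31 to 4.45, below both sets. For Ccl7 they were at 10.38 to 10.57, above both.

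The 9 low-Ckm arrays also fall into sets of 3, by the same genes that chose the muscle-high arrays. Those labelled KO day 0 replicates 2 and 3 and Wt day 3 replicate 2 have Usp18 above 6, those labelled OE day 0 replicates 1 and 3 and OE day 3 replicate 2 carry the marker probe, and those labelled Wt day 0 replicates 2 and 3 and OE day 3 replicate 3 have neither. None of these arrays entered the comparison of set A with set B. Of the 70 genes higher in set A, 42 (60%) were higher with no overlap on the Usp18-high arrays than on the arrays with neither, against 15.1% of all genes, and 1 was lower, against 14.7% of all genes. Without the members of the interferon and antigen presentation lists it was 39 of 67. This left out only Bst2, H2-K1 and Psmb9. Ly6c1, Gvin1, Ifi47, Oas1d, Oas1e, H2-Q6 and H2-Q8, for example, were not on these lists and are among the 39. The count is therefore not free of interferon-induced and class I genes. It also holds each of the near-identical copies Prl2c2, Prl2c3 and Prl2c4, H2-Q6 and H2-Q8, and Oas1d and Oas1e. Thy1 was at 8.39 to 8.43 on the Usp18-high arrays and at 6.24 to 6.51 on those with neither. Mt1 was at 14.16 to 14.47 and 13.04 to 13.37, and Prl2c2 at 12.13 to 12.62 and 10.64 to 10.99. H2-K1 was at 8.65 to 9.28 and 6.15 to 6.56. The arrays with the marker probe, where Usp18 was below 6 as in set A, had Thy1 at 9.35 to 9.63 and Prl2c2 at 12.71 to 12.78, above the Usp18-high arrays, Mt1 at 13.54 to 13.78, between the other low-Ckm sets, and H2-K1 at 6.04 to 6.72, which overlapped with the arrays with neither mark. Thy1 and Prl2c2 were thus high on both the Usp18-high and the marker-probe arrays. These arrays differ in more than Usp18, for example in Car9 (4.24 to 4.39 and 8.08 to 9.02). What sets the levels of Thy1 and Prl2c2 was not tested.

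The genes higher in set B were less uniform on these arrays. Of the 57, 23 (40.35%) were higher with no overlap on the arrays with neither mark than on the Usp18-high arrays, and 13 (22.81%) were lower. Over all genes these shares were 14.7% and 15.1%. Saa3 was among the lower ones, at 6.33 to 6.71 against 8.62 to 8.87. Cxcl1 overlapped, at 11.62 to 11.92 against 11.54 to 11.96. Mdk and Nqo1 were higher on the arrays with neither mark, as they were in set B. The difference between the low-Ckm sets was described and not tested, because these sets too were chosen from measured values.

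**Figure D4:**
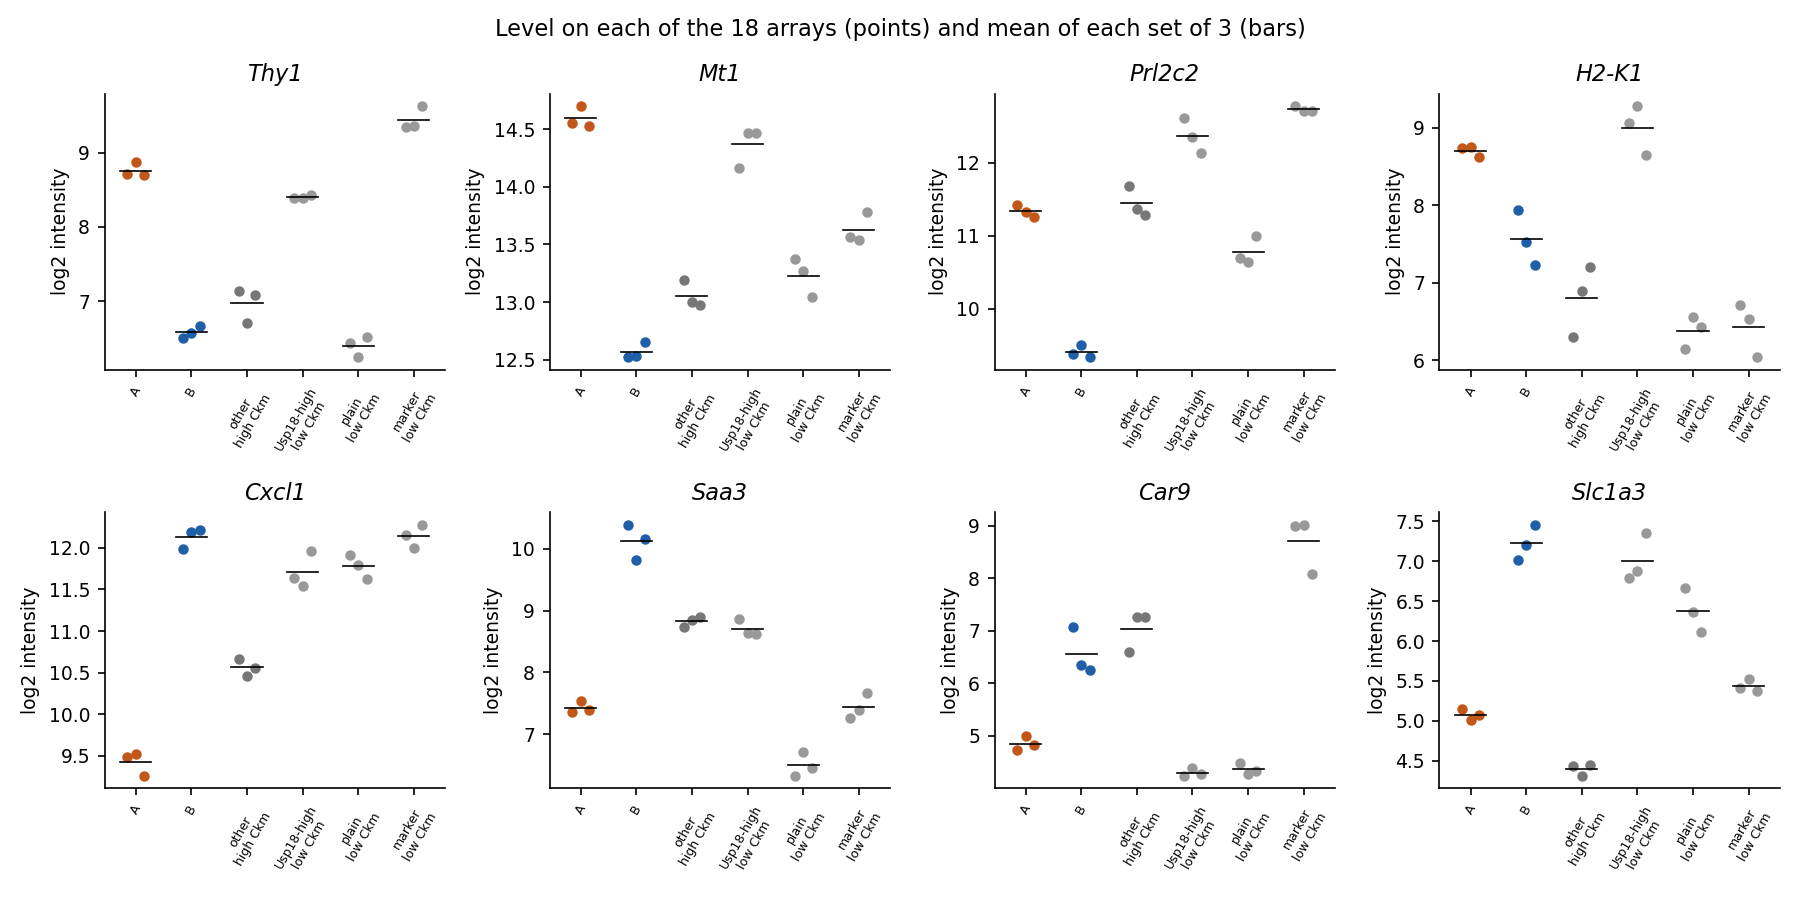
Log2 intensity (y axis, not from 0 and different for each gene) of 8 genes on all 18 arrays, in 6 sets of 3, with points for arrays and bars for the mean of 3. Sets A and B are in color, then the other high-Ckm arrays, the Usp18-high low-Ckm arrays, the low-Ckm arrays with neither mark (plain) and those with the marker probe. Thy1, Mt1, Prl2c2 and H2-K1 are higher both in set A than in set B and on the Usp18-high than on the plain arrays.

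The labelled groups were compared with limma, since the labels were not used to choose the arrays. Of 11921 genes, 0 passed an adjusted p of 0.05 (0%) for KO against Wt at day 3, 0 (0%) for OE against Wt at day 3 and 0 (0%) for KO day 3 against KO day 0, with 273, 471 and 992 genes below 0.05 before adjustment. No other tool was run. For the 127 genes that differed between set A and set B, limma adjusted p ran from 0.9449 to 0.9977 for KO against Wt, from 0.9153 to 0.9956 for OE against Wt and from 0.4875 to 0.993 for KO day 3 against KO day 0. The comparisons share the Wt day 3 arrays or the KO day 3 arrays. Each labelled group that gave an array to set A or set B also holds arrays of another kind, or of both sets.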

How the data were processed

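Illumina MouseWG-6 arrays of 18 samples were used. The authors' table of mean bead intensity per probe is, per the file headers, not normalised, and holds a detection p-value beside each intensity. It is on a linear scale. A second deposited table holds the authors' processed intensities, whose normalisation and scanner steps are not given in the sources used here. Groups and replicate numbers came from sample titles. The members and gene lists were chosen with earlier results of these data known.

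The neqc method (limma 3.58.1 in R 4.3.3), which estimates background from detection p-values, adds an offset of 16 and applies quantile normalisation, here over all 18 arrays, turned the deposited intensities into log2 values. Probes with detection p below 0.05 on at least 3 arrays were kept (22365 of 45281), and each of 11921 genes was read from its probe of highest mean. Symbols came from the platform annotation, updated by Entrez identifier to GRCm38.p6. Of all probes, 34885 had 1 symbol, 18 several and 10378 none.

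Set A and set B were described without a test. Where a set was detected on none of its arrays, the difference is a bound against the lowest signal among detected probes or the probe's own level, whichever was higher. The genes named are the 15 with the largest difference in each direction, up to 4 counted members of each list, the genes that chose the arrays, Gata4 and Acta1, Myog, Mymk and Top2a; Myh3, also planned, did not pass the detection filter. Other list members are given with values. The labelled groups were compared with limma (6 group means, 12 residual degrees of freedom, Benjamini-Hochberg adjustment over all genes), which was tested on simulated data. The spread behind these p-values is that of the samples and may be technical. Alternatives covered background correction, normalisation, filters, probe choice, the replicate number as a block and leaving out each array. Precision is limited by the small number of arrays.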

Additional observations from a re-analysis of the deposited data

How the results depend on the processing

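The counts of genes higher in set A and in set B (70 and 57) depended on the background correction and the scaling. They were 18 and 21 with normexp fitted to the signal, 10 and 11 with no background correction, 153 and 37 with median scaling, and 10 and 10 with the authors' processed values. Differences shrink where background is left in or an offset is larger, by construction. The cause of the shift under median scaling was not tested. Cyclic loess gave 78 and 53, the 6 arrays normalised alone 65 and 57, and a filter of detection on 9 arrays 67 and 55. Leaving out each array gave 65 to 106 genes higher in set A, with 106 without KO day 0 replicate 1, and 60 to 71 higher in set B. None of the 127 differences changed sign under any of these alternatives in which the gene was measured. For the filters and for leaving out an array this follows largely from the rule, which requires no overlap. The other alternatives use the same arrays from which the genes were counted, so the kept signs are not independent evidence. In the labelled comparisons 0 genes passed under every alternative, and leaving out each array gave 0 to 0. Replicate numbers did not pair the arrays. The pairing correlations of same-numbered arrays are not correlations of levels, such as those of 0.9831 to 0.9884 between arrays of set A and set B. The pairing correlations were -0.03, -0.12 and -0.30 for KO against Wt at day 3. They were 0.32, 0.41 and -0.38 for OE against Wt, and -0.06, 0.01 and -0.09 for KO day 3 against day 0. With the replicate number as a block 0 genes passed in each.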

Other observations

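Of 3334 kept probes without a single gene symbol, 21 met the 2-fold rule, 14 higher in set A and 7 in set B. The largest difference was at ILMN_1230278, which read 5.03, 4.93 and 4.38 in set A and 6.90, 6.98 and 6.35 in set B. The largest in the other direction was at ILMN_1255416, which read 9.90, 9.98 and 9.80 in set A and 8.06, 8.16 and 8.10 in set B. Of the 127 named genes, 42 had another kept probe, and in 32 of these every other probe differed in the same direction with no overlap. KO day 0 replicate 1 had correlations with set A of 0.9877 to 0.9884, against 0.9831 to 0.9847 for the other arrays of set B, and was the array of set B nearest to set A for 66 of the 127 genes.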
